A study of Mus musculus with 9 samples.

Results

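The genes described here are 10 transcription factors known for their part in the extraembryonic lineages of the mouse embryo, chosen by name among the 54232 genes of the count table. They are *Gata2*, *Gata3*, *Gata4*, *Gata6*, *Cdx2*, *Tfap2a*, *Tfap2c*, *Hand1*, *Elf3* and *Sox7*, and all 10 were found in it by Ensembl ID. The RNA-seq data comprise 9 libraries. The naïve cells are OG2 mESCs, a single line of C57 x CBA background that carries GFP under the distal *Oct4* promoter, kept in serum and LIF on mitomycin C-inactivated feeders. The primed cells are mEpiSCs converted from these mESCs in F/A medium, which contains bFGF and Activin A, also on feeders. Each state was sampled at passage 5 (P5) and passage 15 (P15) with 2 libraries, and 1 library came from mouse embryonic fibroblasts (MEFs), the cell type of the feeders. The libraries of a group are biological repeats according to the study, and all naïve and primed libraries come from a single line, so p-values measure the spread between repeats of that line.

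The first lineage choices of the embryo separate the trophectoderm, which builds the placenta, from the inner cell mass, and the inner cell mass then forms the epiblast and the primitive endoderm, which lines the yolk sac. *Cdx2*, *Gata3*, *Gata2*, *Tfap2c* and *Tfap2a* are known for trophoblast, where *Hand1* acts later in giant cells, and *Elf3* is an ETS factor of epithelia. *Gata6*, *Gata4* and *Sox7* are known for primitive endoderm and its derivatives. None of these factors is confined to extraembryonic cells: *Gata4*, *Gata6* and *Sox7* also act in definitive endoderm, heart and blood vessels, *Gata2* in blood, *Cdx2* in the gut, *Tfap2a* in neural crest, *Hand1* in the heart, and *Tfap2c* in germ cells and naïve pluripotent cells.

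Levels are given as CPM, a gene's counts relative to the total of its library after TMM scaling, and a gene was called when its adjusted p in edgeR's quasi-likelihood test was under 0.01. The depth of the 8 naïve and primed libraries lay between 14378051 and 20985136 counts, and the MEF library had 25646547. The states stood apart by their markers: naïve cells had 206 to 232 CPM of *Zfp42*, a naïve marker, against 17.0 to 17.6 CPM in primed cells at P5 and 0.227 to 0.230 CPM at P15, while *Fgf5*, a primed marker, was at 1.44 to 1.77 CPM in naïve and 120 to 143 CPM in primed libraries. Since the cells were grown on feeders, 30 fibroblast markers were summed, and they held 11212 to 11262 CPM in naïve cells at P5, 6825 to 6981 CPM in primed cells at P5, 18321 to 19119 CPM in naïve cells at P15, 16132 to 16732 CPM in primed cells at P15 and 88787 CPM in MEFs. In bulk RNA, fewer cells that express a gene and less of its RNA in each cell cannot be told apart.

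Promoter sequence is shown for 3 of the factors, to place letters that factors known in these cells can bind beside the levels of these genes. *Elf3* and *Gata3* were called between the states, and *Cdx2*, which was not, is shown for the octamer it shares with *Elf3*. Of the 10 genes, 5 had a promoter window in the RefSeq table of GRCm38.p6, and these were *Elf3*, *Gata3*, *Cdx2*, *Gata2* and *Tfap2a*. Motifs were searched on both strands of the 250 bases before the annotated start: ATGCAAAT, the octamer that Oct factors bind, GCCNNNGGC for AP-2 factors such as *Tfap2a* and *Tfap2c*, AGATAA for GATA factors and GGAAG for ETS factors such as *Elf3*. These motifs were chosen after the sequences had been read. Capitals mark the octamer in the *Elf3* and *Cdx2* sequences and the AP-2 letters in that of *Gata3*. The sequences lie on the minus strand at chr1:135258569-135258722 for *Elf3* (154 bases, ending at the annotated 5′ end of the gene), chr5:147307271-147307499 for *Cdx2* (229 bases, also ending at the 5′ end) and chr2:9878601-9878850 for *Gata3* (250 bases before an internal start, within the span of longer *Gata3* transcripts and on the opposite strand of an exon of the antisense gene *Gm13256*).
Elf3: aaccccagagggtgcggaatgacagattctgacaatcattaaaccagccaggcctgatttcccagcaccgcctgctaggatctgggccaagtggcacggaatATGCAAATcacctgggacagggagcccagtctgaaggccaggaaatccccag
Cdx2: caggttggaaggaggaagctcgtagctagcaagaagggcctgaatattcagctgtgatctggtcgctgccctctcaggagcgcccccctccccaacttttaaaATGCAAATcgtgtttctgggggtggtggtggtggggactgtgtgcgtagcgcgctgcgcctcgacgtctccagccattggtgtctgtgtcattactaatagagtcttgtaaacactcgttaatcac
Gata3: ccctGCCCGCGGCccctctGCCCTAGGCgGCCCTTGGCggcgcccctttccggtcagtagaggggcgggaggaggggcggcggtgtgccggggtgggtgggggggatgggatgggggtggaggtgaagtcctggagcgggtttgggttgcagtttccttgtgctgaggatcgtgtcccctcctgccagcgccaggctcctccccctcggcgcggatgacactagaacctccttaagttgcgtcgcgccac

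The octamer stood in the windows of *Elf3* and *Cdx2*, 1 match each, and in 1.60% of the 32851 mouse promoter windows of the same length. AP-2 letters stood in 13.7% of them, with 3 non-overlapping matches in that of *Gata3*, 1 in that of *Cdx2* and 1 in a window of *Gata2*. For *Elf3* and *Cdx2* the searched 250 bases ran into the annotated gene, past the 5′ end where the printed bases stop. The AP-2 match of *Cdx2* lay in that unprinted part. GATA letters, found in 9.99% of all windows, had no match in those of the 5 factors, and ETS letters, found in 64.1%, had 2 matches in that of *Cdx2* and 1 to 2 in those of *Tfap2a*. A match says only that the letters are there, and the libraries hold no measure of binding.

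**Figure D1:**
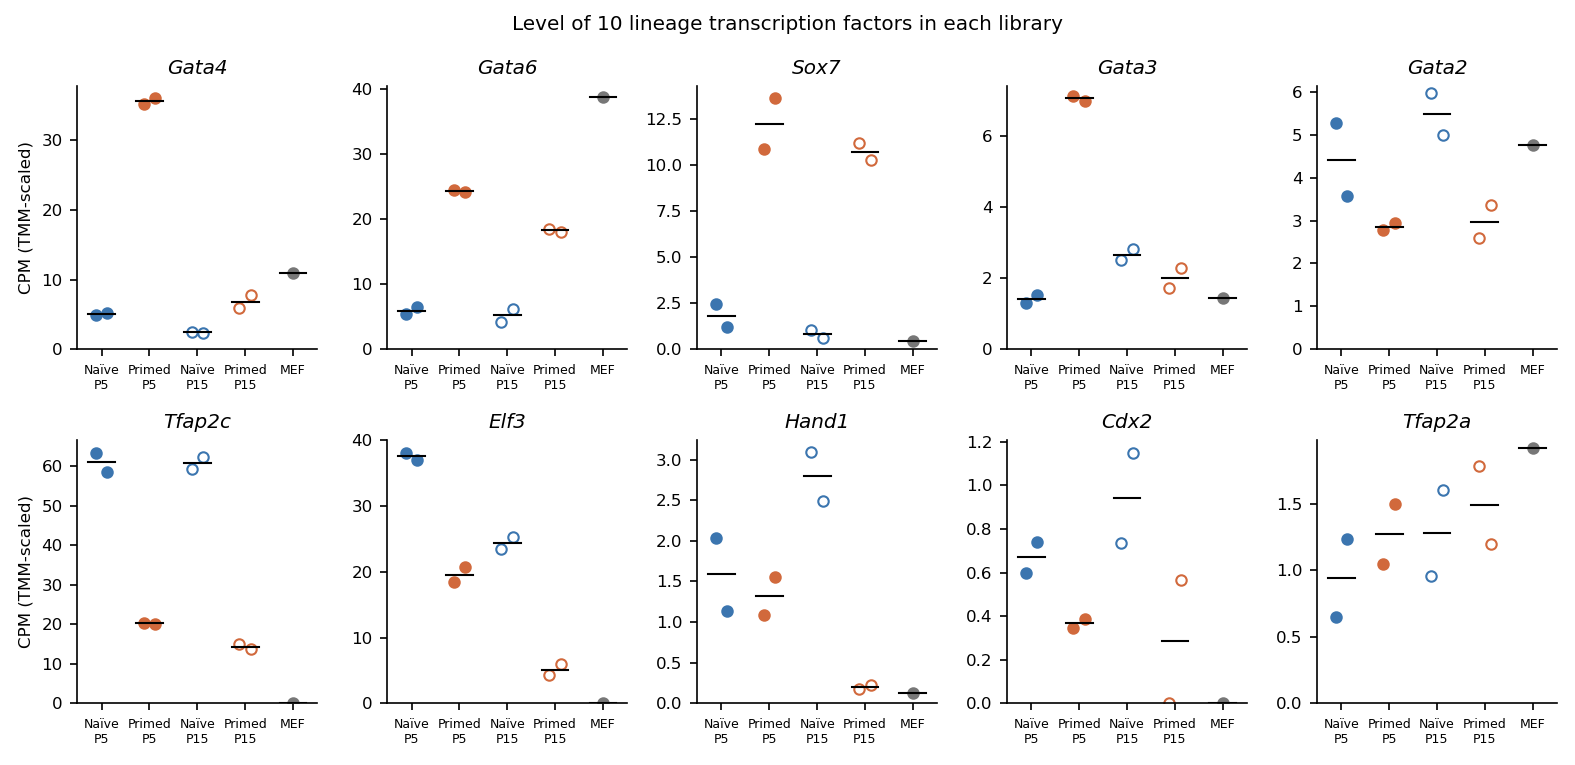
Level of each of the 10 factors in every library, in TMM-scaled CPM on a linear axis from 0. Points are libraries (naïve blue, primed orange, MEF grey; filled at P5 and in MEFs, open at P15), and lines are group means. The top row starts with the endoderm factors, which are high in primed cells, and *Tfap2c* and *Elf3* below them are highest in naïve cells and at 0.0851 and 0 CPM in MEFs.

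The levels fell into 3 patterns. The endoderm factors *Gata4*, *Gata6* and *Sox7* were higher in primed than in naïve cells at both passages. *Tfap2c* and *Elf3* were lower in primed cells at both passages, and *Gata2* and *Hand1* at P15. *Gata3* was higher in primed cells at P5 and did not pass the test at P15, while *Cdx2* and *Tfap2a* passed it at neither passage. At P5, 4 of the 10 factors were called higher and 2 lower, where 31.2% of all genes tested were called higher and 31.1% lower. At P15, 3 were called higher and 4 lower, against 28.2% and 28.4% of all genes. With a fold of at least 2 added, the counts were 4 higher and 1 lower at P5, where 13.5% and 8.85% of genes met it, and 3 higher and 3 lower at P15, where 12.2% and 11.0% did. The libraries of the states did not overlap for 8 of the 10 factors at P5 and 9 at P15, against 84.6% and 81.9% of all genes. The median log2 fold change of the 10 factors was 0.11 at P5 and -0.66 at P15, beside 0.0078 and -0.0039 over all genes tested.

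**Figure D2:**
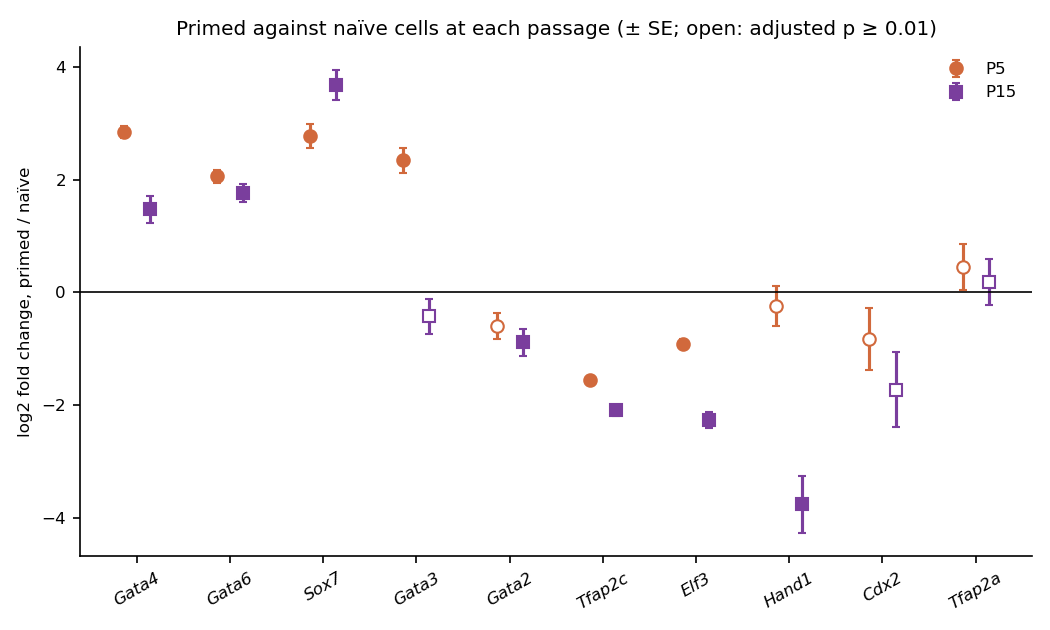
Log2 fold change of primed against naïve cells at P5 (circles) and P15 (squares) for each factor, with its SE. Filled symbols have an adjusted p under 0.01. *Gata4*, *Gata6* and *Sox7* stand above 0 at both passages, *Gata3* at P5, and *Hand1* is furthest below 0 at P15, at -3.76.

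*Gata4* (ENSMUSG00000021944, chr14:63198922-63271692, minus strand), a zinc finger factor of endoderm and heart, rose in primed cells at both passages, more so at P5. Its level was 4.87 and 5.195 CPM in naïve cells at P5 and 35.2 and 36.1 CPM in primed cells at P5. At P15 it was 2.50 and 2.37 CPM in naïve and 5.91 and 7.78 CPM in primed cells. All primed libraries thus lay above the naïve libraries of their passage, and both P15 groups lay below the P5 group of the same state. The log2 fold change of primed against naïve cells was 2.85 ± 0.11 (SE, adjusted p = 6.2e-20) at P5 and 1.48 ± 0.24 (adjusted p = 1.4e-06) at P15. Within primed cells the level fell by 2.41 ± 0.11 on the log2 scale from P5 to P15 (adjusted p = 4.5e-16). Within naïve cells it fell by 1.05 ± 0.22 (adjusted p = 0.0054), a call lost when any 1 of the 4 libraries was left out (adjusted p from 0.0119 to 0.0313) and with DESeq2's Wald test (adjusted p = 0.0245). The state effect at P15 was below that at P5 by a log2 value of -1.36 ± 0.26 (adjusted p = 9.6e-05). With the median feeder share described below taken off, this difference had the opposite sign, 1.88 with an adjusted p of 0.0974. That share came to 97.3% of the naïve level at P15, so little of it was left and the sign of 1.88 decides nothing.

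*Gata6* (ENSMUSG00000005836, chromosome 18, plus strand), the factor known to act earliest in primitive endoderm, was at 5.37 and 6.53 CPM in naïve and 24.5 and 24.2 CPM in primed cells at P5. At P15 the naïve libraries had 4.27 and 6.27 CPM and the primed libraries 18.5 and 18.1 CPM. Primed libraries were above naïve ones at both passages with no overlap. The log2 fold change was 2.06 ± 0.12 (adjusted p = 1.5e-15) at P5 and 1.77 ± 0.16 (adjusted p = 4.2e-12) at P15. From P5 to P15 it fell by 0.44 ± 0.094 in primed cells (adjusted p = 0.00022), and its change in naïve cells did not pass the test (log2 fold change -0.16 ± 0.21, adjusted p = 0.648). The state effects at P15 and P5 differed by -0.28 ± 0.21, which did not pass the test (adjusted p = 0.326). *Gata6* was higher in MEFs than in any other group, at 38.8 CPM (912 counts, exact Poisson 95% interval 36.3 to 41.4 CPM for counting error only).

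*Sox7* (ENSMUSG00000063060, chr14:63943673-63950732, plus strand) encodes an SRY-box factor of primitive endoderm and endothelium. Naïve cells had 2.44 and 1.19 CPM at P5 and 1.03 and 0.640 CPM at P15. Primed cells had 10.9 and 13.6 CPM at P5 and 11.2 and 10.3 CPM at P15. Every primed library was above every naïve library, and the primed levels of the passages overlapped. The rise in primed cells was 2.78 ± 0.21 on the log2 scale (adjusted p = 9.3e-13) at P5, against 3.68 ± 0.27 (adjusted p = 8.7e-15) at P15, with a difference of 0.92 ± 0.42 between the passages that did not pass the test (adjusted p = 0.0897). Neither passage comparison passed it: the log2 fold change was -0.22 ± 0.13 in primed cells (adjusted p = 0.163) and -1.13 ± 0.46 in naïve cells (adjusted p = 0.113). MEFs had 0.468 CPM of *Sox7*, which is 11 counts.

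The 3 endoderm factors can be set side by side within primed cells, where *Gata4* at P15 was less abundant by a factor of 5.32 than at P5, *Gata6* by 1.36, and *Sox7* did not pass the test. *Sox17*, the paralog of *Sox7* in definitive and primitive endoderm, rose beside them from 0.346 and 0.746 CPM in naïve to 28.3 and 29.2 CPM in primed cells at P5 (log2 fold change 5.74 ± 0.19, adjusted p = 2.0e-21). At P15 it was at 0.295 and 0.576 CPM in naïve and 14.997 and 17.6 CPM in primed cells (5.16 ± 0.27, adjusted p = 7.7e-19).

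*Gata3* (ENSMUSG00000015619, chr2:9857078-9890034, minus strand), a zinc finger factor of trophoblast and T cells, had a rise that was present at P5 and not called at P15. Its level was 1.29 and 1.53 CPM in naïve cells and 7.11 and 6.99 CPM in primed cells at P5. At P15 it was 2.50 and 2.81 CPM in naïve cells and 1.72 and 2.27 CPM in primed cells. The primed libraries thus lay above the naïve ones at P5 and below them at P15. The log2 fold change was 2.34 ± 0.22 (adjusted p = 1.5e-10) at P5 and -0.43 ± 0.31 (adjusted p = 0.228) at P15. In primed cells *Gata3* fell by 1.85 ± 0.21 between the passages (adjusted p = 3.7e-08), and in naïve cells its change of 0.91 ± 0.30 did not pass the test (adjusted p = 0.0525). The state effect differed between P15 and P5 by -2.75 ± 0.37 (adjusted p = 4.3e-07).

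*Gata2* (ENSMUSG00000015053, chr6:88193891-88207032, plus strand) encodes a zinc finger factor of trophoblast and blood stem cells. It was at 5.27 and 3.56 CPM in naïve and 2.78 and 2.94 CPM in primed cells at P5. At P15 it was at 5.97 and 4.99 CPM in naïve and 2.58 and 3.35 CPM in primed cells. Naïve libraries were the higher ones at both passages, without overlap, while the passages of each state overlapped. The log2 fold change of -0.59 ± 0.23 did not pass the test at P5 (adjusted p = 0.0221) and that of -0.89 ± 0.24 passed at P15 (adjusted p = 0.0015). The P5 value passed without the second naïve library (-0.87, adjusted p = 0.0017). The P15 call was lost with DESeq2's Wald test (adjusted p = 0.0199), without the first naïve library (adjusted p = 0.0115), without the first primed library (adjusted p = 0.0498) and after the median feeder share was taken off (adjusted p = 0.0128).

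*Tfap2c* (ENSMUSG00000028640, chr2:172549593-172558622, plus strand) encodes AP-2γ, an activator of trophoblast genes that naïve pluripotent cells also express. Naïve cells had 63.4 and 58.6 CPM at P5 and 59.4 and 62.2 CPM at P15. In primed cells the level was 20.4 and 20.1 CPM at P5 and 15.03 and 13.6 CPM at P15. The naïve libraries overlapped between passages, all primed libraries lay below them, and MEFs had 2 counts (0.0851 CPM). *Tfap2c* was lower in primed cells by 1.56 ± 0.071 on the log2 scale at P5 (log2 fold change -1.56, adjusted p = 6.0e-18) and had a log2 fold change of -2.10 ± 0.095 at P15 (adjusted p = 8.5e-21). Primed cells lost a further 0.53 ± 0.10 from P5 to P15 (log2 fold change -0.53, adjusted p = 9.6e-05), a call lost with the median feeder share taken off (-0.34, adjusted p = 0.0246). Naïve cells showed a log2 fold change of -0.0038 ± 0.063 (adjusted p = 0.976). The state effects differed by -0.52 ± 0.12 (adjusted p = 0.00082), a call lost without the second primed library at P15 (adjusted p = 0.0105) and with the median feeder share taken off (adjusted p = 0.0240).

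*Elf3* (ENSMUSG00000003051, chr1:135253575-135258568, minus strand) was at 38.1 and 37.1 CPM in naïve cells at P5 and 18.4 and 20.7 CPM in primed cells at P5. At P15 it was at 23.4 and 25.3 CPM in naïve and 4.30 and 5.91 CPM in primed cells. The primed libraries were below the naïve ones at each passage and the P15 libraries below those of P5 in each state, with no overlap. Its log2 fold change in primed cells was -0.91 ± 0.081 (adjusted p = 3.4e-11) at the earlier passage and -2.26 ± 0.15 (adjusted p = 6.1e-16) at the later. It fell by 0.62 ± 0.081 with passage in naïve cells (adjusted p = 0.00017) and by 1.97 ± 0.14 in primed cells (adjusted p = 4.1e-12). The state effect at P15 exceeded that at P5 in size, with a difference of -1.33 ± 0.17 (adjusted p = 1.6e-07). MEFs had 0 counts of *Elf3*, which allows up to 0.128 CPM for counting error alone.

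*Hand1* (ENSMUSG00000037335, chr11:57828705-57832818, minus strand), a basic helix-loop-helix factor of trophoblast giant cells, extraembryonic mesoderm and heart, was a low gene with a large difference at P15. It had 2.04 and 1.14 CPM in naïve and 1.09 and 1.55 CPM in primed cells at P5. At P15 it had 3.09 and 2.49 CPM in naïve cells and 0.172 and 0.227 CPM in primed cells, the latter from 3 and 4 counts. The states overlapped at P5 and were apart at P15. Its log2 fold change was -0.24 ± 0.36 (adjusted p = 0.563) at P5, against -3.76 ± 0.50 (adjusted p = 4.2e-08) at P15. At P15 only the naïve libraries reached the 10 counts in 2 libraries required for testing. *Hand1* could thus be called lower there but not higher, and it was not tested when the first or the second naïve library was left out. In primed cells it fell by 2.71 ± 0.53 from P5 to P15 (adjusted p = 9.9e-05), where only the P5 libraries reached 10 counts. In naïve cells its change of 0.81 ± 0.33 did not pass the test (adjusted p = 0.115). The difference between the state effects was -3.51 ± 0.65 (adjusted p = 7.9e-05), and MEFs had 3 counts (0.128 CPM).

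*Cdx2* (ENSMUSG00000029646, chr5:147300805-147307270, minus strand), the homeobox factor that sets the trophectoderm apart in the blastocyst, was close to the limit of what these libraries could measure. It had 12 and 15 counts (0.597 and 0.742 CPM) in naïve and 7 in each primed library (0.348 and 0.388 CPM) at P5. At P15 it had 10 and 18 counts (0.737 and 1.15 CPM) in naïve cells, and the primed libraries had 0 and 10 counts (0, which allows up to 0.172 CPM, and 0.568 CPM). The naïve libraries were the higher at both passages, but the primed libraries at P15 disagreed with each other. Its log2 fold change did not pass the test at P5, where it was -0.82 ± 0.54 (adjusted p = 0.177), nor at P15, where it was -1.73 ± 0.67 (adjusted p = 0.0233). The P15 value passed without the second primed library, which leaves only the library with 0 counts (adjusted p = 0.00017), and without the first naïve library (-2.02, adjusted p = 0.0023). MEFs had 0 counts, which allows up to 0.128 CPM. *Cdx1*, its paralog of gut and embryo axis, was higher than *Cdx2* in naïve cells per kilobase as well as in CPM, and fell from 3.27 and 3.33 CPM in naïve to 0.0994 and 0.277 CPM in primed cells at P5 (log2 fold change -4.09 ± 0.44, adjusted p = 2.0e-09). At P15 *Cdx1* had 96 and 142 counts in naïve and 1 and 0 counts in primed cells. Only its naïve libraries reached 10 counts at either passage, so the filter let *Cdx1* be called lower but not higher.

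*Tfap2a* (ENSMUSG00000021359, chr13:40715302-40738376, minus strand), the AP-2 factor of trophoblast, surface ectoderm and neural crest, did not pass the test in any comparison. It had 0.646 and 1.24 CPM in naïve and 1.04 and 1.498 CPM in primed cells at P5, and 0.958 and 1.60 CPM in naïve and 1.78 and 1.19 CPM in primed cells at P15. All 4 groups overlapped, at 13 to 31 counts a library, and MEFs had 1.91 CPM. With a log2 fold change of 0.45 ± 0.41 in the P5 libraries (adjusted p = 0.331) and of 0.19 ± 0.41 in those of P15 (adjusted p = 0.702), no difference was detectable at this depth.

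The passages of each state were compared next. The libraries carry no batch label, so passage cannot be told apart from the time at which cells were collected or libraries made. From P5 to P15, 6 of the 9 factors tested fell in primed cells and 0 rose (*Tfap2c* among the 6 was not called with the median feeder share taken off), where 22.8% of all genes were called lower and 24.3% higher. With a fold of at least 2, 4 of them fell (*Gata3*, *Gata4*, *Hand1* and *Elf3*), where 8.43% of genes were lower and 3.18% higher. In naïve cells 2 of the 10 fell (*Gata4* and *Elf3*) and 0 rose, where 5.01% of genes were called lower and 4.21% higher, and 1 of them (*Gata4*) with a fold of at least 2, where 0.721% were lower and 0.414% higher. The libraries of the passages did not overlap for 5 of the 10 factors in naïve cells and for 6 in primed cells, against 58.0% and 78.1% of all genes. The interaction called 5 of the 10 factors (*Gata3*, *Gata4*, *Tfap2c*, *Hand1* and *Elf3*), in all of which the state effect was lower at P15 than at P5, and 10.8% of all genes were called in that direction and 13.3% in the other. A difference of at least 2-fold was called for 4 of the 5, all but *Tfap2c*, where 4.80% of genes had it in that direction and 2.36% in the other. The sum of the 10 factors was 117 to 124 CPM in naïve cells at P5, 122 to 128 CPM in primed cells at P5, 104 to 110 CPM in naïve cells at P15 and 61.2 to 63.3 CPM in primed cells at P15.

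To compare the factors with each other, levels were divided by the length of their merged exons. In naïve cells at P5 *Elf3* (17.0 ± 0.34 CPM per kb, SD, n = 2) and *Tfap2c* (16.6 ± 0.93) were the most abundant and overlapped in their libraries, and the next was *Gata4* at 1.29 ± 0.058 CPM per kb. *Gata4* (9.14 ± 0.16 CPM per kb) and *Elf3* (8.82 ± 0.72) led in primed cells at P5 and overlapped, followed by *Tfap2c* at 5.51 ± 0.056, *Gata6* at 3.74 ± 0.040 and *Sox7* at 3.72 ± 0.59, of which the last pair overlapped. In naïve cells at P15 *Tfap2c* (16.5 ± 0.55 CPM per kb) stood above *Elf3* (11.0 ± 0.59), and *Hand1* followed at 1.40 ± 0.21. The order in primed cells at P15 was *Tfap2c* (3.90 ± 0.27 CPM per kb), *Sox7* (3.25 ± 0.19), *Gata6* (2.81 ± 0.039), *Elf3* (2.30 ± 0.51) and *Gata4* (1.75 ± 0.34), of which only *Elf3* and *Gata4* overlapped with a neighbour. In MEFs *Gata6* (5.96 CPM per kb) and *Gata4* (2.82) led. The lowest of the 10 was *Tfap2a* in naïve cells at P5 (0.192 ± 0.085 CPM per kb), *Cdx2* in primed cells at P5 (0.163 ± 0.013), *Sox7* in naïve cells at P15 (0.253 ± 0.084, overlapping with *Tfap2a*) and *Hand1* in primed cells at P15 (0.100 ± 0.020, overlapping with *Cdx2*).

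Several of the factors were present in the MEF library, so their levels were set against the RNA that feeders could bring. The level of each of 26 fibroblast markers, those of at least 50 CPM in MEFs, was divided by its level in MEFs. The lowest ratio in a library was 2.51% to 6.61% (for *Col3a1*, *Lum*, *Col1a1* or *Acta2*), the median 14.5% to 25.4%, and the highest reached 354% for *Dcn* in primed cells at P15, so the markers gave no single share. MEF RNA at the lowest ratio would carry 37.9% of the *Gata6* level of naïve cells at P5 and 47.5% at P15, and at the median ratio 110% and 158%. For primed cells the same shares of *Gata6* were 4.66% and 23.2% at P5 and 5.50% and 53.6% at P15. Of *Gata4*, MEF RNA would carry 12.7% and 36.9% in naïve cells at P5, 29.2% and 97.3% in naïve cells at P15, 0.903% and 4.50% in primed cells at P5 and 4.18% and 40.7% in primed cells at P15. The naïve levels of *Gata6*, and at P15 of *Gata4*, were therefore no higher than, or close to, what the median ratio would bring. *Gata4* and *Gata6* were called higher in primed cells at both passages with the lowest share taken off. They were also called with the median share taken off. For *Gata6*, and for *Gata4* at P15, the median share left little or none of the naïve level. Those calls could then hardly come out otherwise, and they do not test the part of feeder RNA. *Elf3* and *Cdx2* had 0 counts in MEFs, and *Tfap2c* and *Hand1* had 2 and 3. At the median ratio *Sox7* came to at most 12.1% of its level in any group. The largest share was 16.2% for *Hand1*, 18.3% for *Gata3* and 40.6% for *Gata2*, all in primed cells at P15. For *Tfap2a* it was 34.3%, in naïve cells at P5. The part of feeder RNA in the remaining differences was not tested.

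**Figure D3:**
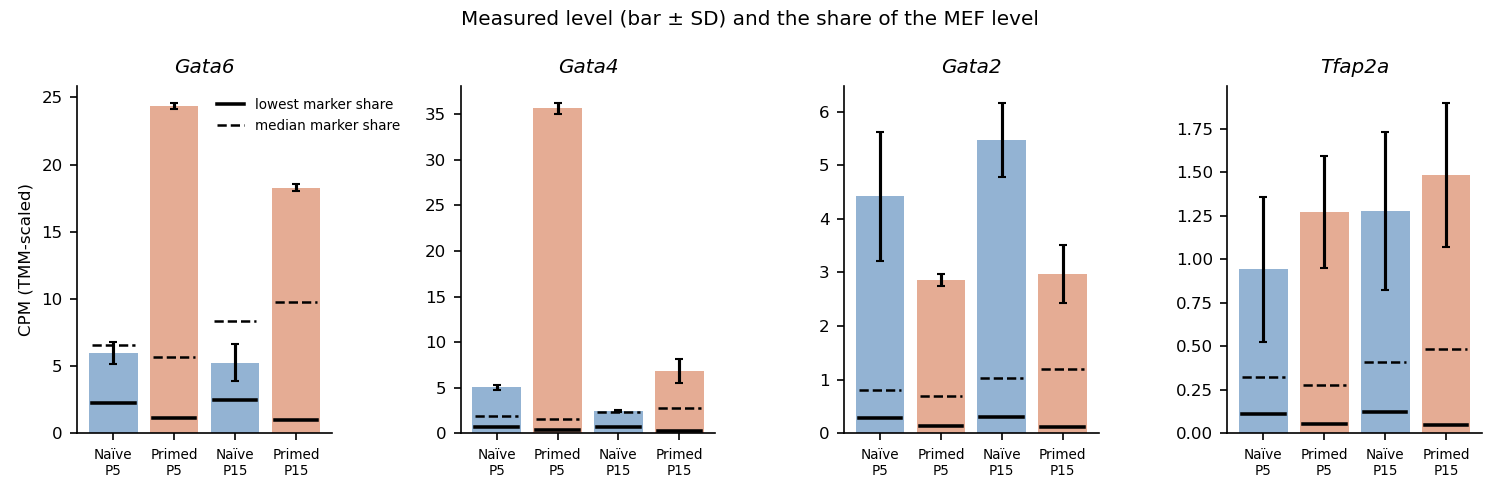
Mean level of *Gata6*, *Gata4*, *Gata2* and *Tfap2a* (bars from 0, ± SD, n = 2, in CPM) in the naïve (blue) and primed (orange) groups. Black lines give the MEF level times the lowest (solid) and the median (dashed) fibroblast marker ratio of the group; the dashed line stands above the bar for *Gata6* in naïve cells.

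The known partners and kin of these factors were then examined by lists. Their counts stand beside 31.2% of all genes called higher and 31.1% lower at P5, and 28.2% and 28.4% at P15. Of 14 paralogs, 9 were tested at P5, of which 5 were called higher in primed cells and 1 lower, and of the 7 tested at P15 again 5 were higher and 1 lower. Their median log2 fold change was 0.64 and 0.52, beside a median near 0 over all genes. The count higher at P15 was 2 with DESeq2's Wald test and 3 to 5 when 1 library was left out. The count lower was 0 without either naïve library at each passage, where *Cdx1* no longer had 10 counts in 2 libraries and was not tested. *Sox17* was the paralog higher at both passages with a fold of at least 2, and *Cdx1* the lower one. *Cdx1* reached 10 counts in naïve libraries only, so the filter let it be called lower but not higher. *Sox17* at P15 and *Gata1* at P5 reached 10 counts in primed libraries only and could be called higher but not lower. Of 7 GATA cofactors, 4 were called higher and 1 lower at P5 (median log2 fold change 0.56), and 2 higher and 1 lower at P15 (0.18). The lower count was 0 without either naïve library at P5, without any 1 of the 4 libraries at P15 and at P15 with DESeq2's Wald test. The higher count at P15 was 1 with that test, without the second naïve library and with the median feeder share taken off. *Lmo2*, a LIM-only bridging protein of GATA complexes, was at 1.19 and 1.44 CPM in naïve and 4.27 CPM in both primed libraries at P5 (log2 fold change 1.73 ± 0.26, adjusted p = 1.0e-06), and its log2 fold change at P15 was 1.13 ± 0.30 (adjusted p = 0.0011). *Tal1*, a partner of *Gata2* and *Lmo2* in blood cells, fell from 1.43 and 1.84 CPM to 0.149 and 0.277 CPM at P5 (-2.89 ± 0.52, adjusted p = 1.3e-05) and had -2.08 ± 0.56 at P15 (adjusted p = 0.0014). Only its naïve libraries reached 10 counts at either passage, so the filter let *Tal1* be called lower but not higher. Without either naïve library *Tal1* was not tested, so the lower count of 0 there is not a lost call. The P15 calls of *Lmo2* and *Tal1* were lost with DESeq2's Wald test (adjusted p = 0.0194 and 0.0270). That of *Lmo2* was also lost without the second naïve library (adjusted p = 0.0290) and with the median feeder share taken off (adjusted p = 0.0113), and that of *Tal1* without the first or the second primed library (adjusted p = 0.0135 and 0.0130).

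Trophoblast genes did not move one way. Of 27 listed, 19 were tested at P5, with 9 called higher and 6 lower in primed cells, and 18 at P15, with 4 higher and 8 lower. The median log2 fold change was -0.045 at P5 and -0.33 at P15. Within primed cells, 11 of 19 were lower at P15 than at P5 and 2 higher, where 22.8% of all genes were called lower and 24.3% higher. The median log2 fold change there was -1.23 beside -0.0012 over all genes. *Eomes*, a T-box factor of trophoblast stem cells and of the primitive streak, rose from 6.22 and 6.68 CPM to 35.8 and 42.3 CPM at P5 (log2 fold change 2.63 ± 0.11, adjusted p = 4.8e-19) and from 4.22 and 4.57 CPM to 52.4 and 57.7 CPM at P15 (3.64 ± 0.12, adjusted p = 1.3e-24). *Prl2c2*, a prolactin family gene whose near-identical copies make its counts uncertain, went from 4 and 6 counts in naïve to 39 and 51 counts in primed cells at P5. Only its primed libraries reached the count required for testing at either passage, so the filter let *Prl2c2* be called higher but not lower. *Id2*, an inhibitor of helix-loop-helix factors, fell in primed cells by 1.99 ± 0.090 (adjusted p = 5.5e-18) at P5 and by 2.35 ± 0.11 (adjusted p = 5.9e-21) at P15. *Phlda2*, an imprinted regulator of placental growth, fell by 2.68 ± 0.078 (adjusted p = 1.1e-22) at P5 and by 1.83 ± 0.088 (adjusted p = 4.4e-20) at P15.

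The keratins *Krt8* and *Krt18*, a pair that forms the filaments of simple epithelia, and further genes of the trophoblast list were looked at after their values were seen. *Krt8* had 58.9 and 61.0 CPM in naïve and 695 and 702 CPM in primed cells at P5, and 85.1 and 89.5 CPM in naïve and 178 and 184 CPM in primed cells at P15. Its log2 fold change was thus 3.57 ± 0.040 at P5 and 1.04 ± 0.064 at P15 (adjusted p = 5.4e-33 and 8.8e-17), and that of *Krt18* was 3.43 ± 0.042 and 0.88 ± 0.069 (adjusted p = 5.1e-32 and 6.6e-14). *Elf5*, a factor that marks trophoblast stem cells, had at most 3 counts in any library. *Tpbpa* and *Synb*, markers of spongiotrophoblast and syncytiotrophoblast, had 0 counts in all 9 libraries, and *Prl3d1* had at most 2. Other genes of the list were present. Over the naïve and primed libraries *Gcm1* had 1 to 14 counts, *Syna* 2 to 10, *Esx1* 0 to 78 and *Ascl2* 33 to 84.

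Of 27 genes of primitive and visceral endoderm, 12 were called higher and 9 lower among 24 tested at P5, and 11 higher and 7 lower among 23 at P15. The median log2 fold change was 0.45 at P5 and 0.31 at P15. This list holds matrix and secreted genes that fibroblasts also make, and its sum was 17754 CPM in MEFs against 3984 to 5377 CPM in the other libraries. *Foxa2*, a forkhead factor of endoderm, went from 0.594 and 0.646 CPM in naïve to 47.0 and 49.2 CPM in primed cells at P5 (log2 fold change 6.30 ± 0.15, adjusted p = 6.2e-25) and from 2 and 4 counts to 1521 and 1552 counts at P15. *Lama1*, a laminin chain of the basement membrane, fell by 1.58 ± 0.063 at P5 (adjusted p = 1.9e-19) and by 2.62 ± 0.12 at P15 (adjusted p = 4.0e-21). The growth factor receptor *Fgfr4* fell by 2.22 ± 0.42 (adjusted p = 3.5e-05) and 2.83 ± 0.52 (adjusted p = 1.3e-05). *Afp* and *Ttr*, secreted products of visceral endoderm looked at after their values were seen, had 0 or 1 count in every naïve and primed library. Other secreted products in the list were present. *Rbp4* had 10 to 24 counts in naïve and 103 to 217 in primed libraries. Over both states *Apob* had 13 to 45 counts, *Apoa1* 0 to 15 and *Apoe* 1581 to 12089.

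Of 13 genes of the primitive streak and definitive endoderm, 11 were tested and all 11 were called higher in primed cells with a fold of at least 2 at each passage, with a median log2 fold change of 4.62 at P5 and 5.08 at P15. Without either primed library at P15 only 6 of them still had 10 counts in 2 libraries, and all 6 were called higher. Without the first or the second primed library at P5, 9 were tested and 8 or 9 were called higher. The genes no longer tested in these fits, 5 at P15 and 2 at P5, had reached 10 counts in primed libraries only. The filter thus let them be called higher but not lower. *Eomes*, *Foxa2* and *Sox17* belong to this list as well. *Cer1*, a secreted antagonist of Nodal and BMP, had at most 1 count in naïve libraries and 209 to 238 CPM in primed ones. The LIM homeobox factor *Lhx1* was at 0.0640 to 0.497 CPM in naïve and 65.2 to 77.1 CPM in primed libraries.

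Of 15 genes of extraembryonic mesoderm and amnion, 5 were called higher and 2 lower among 13 tested at P5, and 3 higher and 4 lower among 12 at P15, with medians of 0.64 and -0.27. Over the alternatives the counts ran from 2 to 6 higher and 0 to 2 lower at P5, and from 0 to 3 higher and 1 to 4 lower at P15. The count higher at P15 was 0 with DESeq2's Wald test and 1 without the second naïve or either primed library. The count lower at P15 was 1 without the first naïve library, where 2 of the 4 were not tested, and 2 without the first primed library. At P5 the count lower was 0 without the first naïve library and 1 without any of the others, and the count higher was 3 without the first primed library and 2 with the median feeder share taken off. *Gabrp*, a GABA receptor subunit, fell from 1.63 and 1.89 CPM to 0.596 and 0.721 CPM at P5 (log2 fold change -1.38 ± 0.39, adjusted p = 0.0026), a call lost in DESeq2's Wald test (adjusted p = 0.0327), without the first naïve library (adjusted p = 0.0110) and without the first or the second primed library (adjusted p = 0.0351 and 0.0141). At P15 it had 0 and 1 count in primed cells against 19 and 20 in naïve cells, so there the filter let it be called lower but not higher. Of 13 genes of surface ectoderm and neural crest, which also use *Tfap2a*, 10 were tested, with 4 higher and 3 lower at P5 and 6 higher and 3 lower at P15, and medians of 0.55 and 0.46. The count higher at P15 was 2 without either primed library, where 2 of the 6 were not tested. At P5 it was 1 without the first and 2 without the second primed library, where 2 of the 4 were not tested, and 2 with DESeq2's Wald test or no filter. *Pax3*, a paired box factor of neural crest and muscle, had 0 to 4 counts in naïve and 16 to 33 in primed libraries. *Trp63*, a p53 relative of stratified epithelia, had 0 to 5 counts in naïve and 11 to 19 in primed libraries. Both reached 10 counts in primed libraries only, so the filter let them be called higher but not lower. These are the 2 that were not tested without a primed library. Of the 30 fibroblast markers, primed cells had 5 called higher (9 when scaled by library size alone) and 19 lower at P5 and 12 higher and 11 lower at P15, and 24 of them were higher and 2 lower in P15 than in P5 primed cells.

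**Figure D4:**
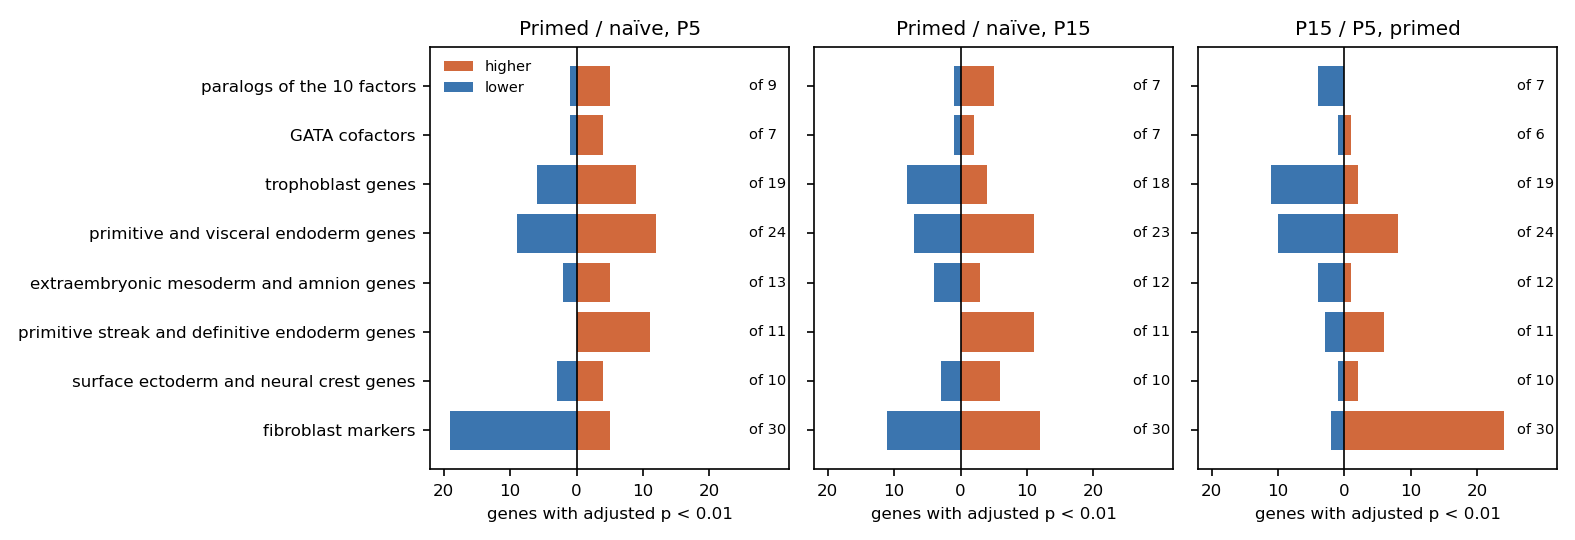
Number of genes of each list called higher (orange, to the right) or lower (blue, to the left) at an adjusted p under 0.01 in primed against naïve cells at P5, at P15, and at P15 against P5 in primed cells. The number tested stands beside each bar. All 11 tested genes of the primitive streak and definitive endoderm list are to the right in both state comparisons, while trophoblast genes are on both sides. Of these 11, 2 at P5 and 5 at P15 reached 10 counts in primed libraries only and could not be called lower.

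Genes that followed each factor most closely across the 9 libraries were found by Pearson's r of log2(CPM + 1), among 14535 genes with a mean of at least 1 CPM. The libraries fall into 5 groups that these correlations share, so r is a description. *Gata3* was nearest to *Tal2* (r = 0.968) and to the T-box factor *Tbx20* (r = 0.967). *Tbx20*, of extraembryonic mesoderm and heart, had 1.09 and 1.39 CPM in naïve and 7.65 and 8.60 CPM in primed cells at P5, and 1.92 and 2.28 CPM in naïve and 1.19 and 1.32 CPM in primed cells at P15. *Gata4* was nearest to *Lrig2* (r = 0.993) and *Hipk1* (r = 0.990), *Gata6* to *Cnot6* (r = 0.996) and *Pld2* (r = 0.995), and *Sox7* to *Rfx3* (r = 0.996) and *H2-Q1* (r = 0.994). *Tfap2c* was nearest to *Celf1* and *Gfpt2* (r = 0.998 for both), *Elf3* to *Grik3* (r = 0.994) and *Gprasp2* (r = 0.993), and *Hand1* to *E2f2* and *Gm128* (r = 0.975 for both). *Gata2* was nearest to *Gm14391* (r = 0.972) and *Far1* (r = 0.960), *Cdx2* to *Mettl5* (r = 0.934) and *Phtf2* (r = 0.929), and *Tfap2a* to *2810402E24Rik* (r = 0.918) and *Tceanc2* (r = 0.872). An r above 0.95 was shared by 599 genes for *Tfap2c*, 356 for *Gata6*, 299 for *Elf3*, 248 for *Sox7*, 57 for *Gata4*, 13 for *Hand1*, 8 for *Gata3*, 3 for *Gata2* and 0 for *Cdx2* and *Tfap2a*.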

How the data were processed

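RNA-seq libraries were made from poly(A) RNA (NEBNext Ultra kit) of 8 naïve and primed samples and 1 MEF sample. The authors trimmed reads with Cutadapt, aligned them with HISAT2 to mm10, with several alignments per read allowed, and counted them with featureCounts. Raw counts per gene were deposited, and the strand and multi-mapping settings of the counting are not given in the sources used here. *Gata3*, *Gata6*, *Tfap2a* and *Elf3* share 73 to 380 exon bases with antisense genes of at most 29 counts, whose reads cannot be told apart. Groups came from the sample titles. Names, exons and coordinates are from GENCODE M21 (GRCm38), which named 54079 of 54232 IDs. The other 153 held at most 0.0165% of counts, and 92 spike-in entries at 0 were left out.

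Primed and naïve cells at each passage, and passages within each state, were compared in fits of 4 libraries with edgeR 4.0.16 (R 4.3.3, TMM, quasi-likelihood test), over genes that reached 10 counts in 2 or more libraries, with Benjamini-Hochberg adjustment over all genes tested. The interaction was fitted over 8 libraries, and the MEF library entered no fit. The SE is the log2 fold change divided by the root of F. Alternatives were DESeq2 1.42.0 (Wald test, size factors), library size alone, no filter, a replicate block, all 8 libraries in 1 fit, the lowest or median feeder share taken off, and leaving out each library. A library with 0 counts of a gene allows up to 3, given in CPM beside the value, and this covers counting error only. Replicates differed beyond sampling noise (chi-square per gene 2.10 to 3.29). The scripts were tested on simulated data.

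Members and lists were chosen with earlier results of these data known. Genes named were the 10 factors, the state markers, up to 2 genes per direction and list with the largest smaller change among those called with a fold of at least 2 at both passages, and the 2 genes most like each factor.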

Additional observations from a re-analysis of the deposited data

Results flagged for a closer look

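The effect of the state, primed against naïve, differed between the passages for 5 of the 10 factors, by the interaction term of edgeR's quasi-likelihood fit over 8 libraries, in which 10.8% of all genes were called in the direction these took. For *Gata3* the state effect at P15 minus that at P5 was -2.75 on the log2 scale (SE 0.37, adjusted p = 4.3e-07), with primed libraries above naïve ones at P5 and below them at P15. For *Hand1* it was -3.51 (SE 0.65, adjusted p = 7.9e-05), and the primed libraries at P15 held 3 and 4 counts. The value of *Gata4* was -1.36 (SE 0.26, adjusted p = 9.6e-05), that of *Elf3* was -1.33 (SE 0.17, adjusted p = 1.6e-07) and that of *Tfap2c* was -0.52 (SE 0.12, adjusted p = 0.00082). With the median feeder share taken off, 2 of these were not called: *Tfap2c* at -0.41 (adjusted p = 0.0240) and *Gata4* at 1.88 (adjusted p = 0.0974). For *Gata4* that share came to 97.3% of the naïve level at P15, so the sign of its value decides nothing. Fibroblast markers moved with the passage as well, since 18 of 30 had a higher and 2 a lower state effect at P15, and their part in these values was not tested beyond taking off a feeder share. No group held enough libraries to look for a library that stood apart.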

How the results depend on the processing

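Scaling by library size alone moved the median log2 fold change of all genes by 0.20 at P5, 0.10 at P15, -0.13 between passages of primed cells and -0.11 in the interaction. Under it, the only factor to change sign was *Gata2* between passages of primed cells, which was not called (-0.11). Factors that passed the test and changed sign under any alternative came to *Gata4* alone, whose interaction was 1.88 with the median feeder share taken off. This share came to 97.3% of the *Gata4* level in naïve cells at P15, so that sign decides nothing. Taking off the median share left 3 factors with a lower state effect at P15 (from 5). It also left 898 genes called between passages of naïve cells (from 1446), and the cause was not tested. In naïve cells the count of factors lower at P15 went from 2 to 1, and with a fold of at least 2 to 0, without the filter, with DESeq2's Wald test and without any 1 library. Without the filter 551 genes were called there. Without the second primed library at P15, 5 factors instead of 3 were lower with a fold of at least 2 (range over the libraries left out 3 to 5).

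Values near 0 that were not called changed sign as follows. *Tfap2c* between passages of naïve cells was 0.0084 and 0.091 with the lowest and median feeder share taken off, and up to 0.049 without a library (lowest -0.065). *Gata2* between passages of primed cells was -0.14 with the median feeder share. Without a library, it ranged from -0.17 to 0.20, *Tfap2a* there from -0.11 to 0.47, *Gata6* between passages of naïve cells from -0.47 to 0.071, *Hand1* at P5 from -0.62 to 0.21 and *Tfap2a* at P15 from -0.14 to 0.59. In the interaction, *Tfap2a* ranged from -0.77 to 0.18, *Gata6* from -0.52 to 0.039 and *Cdx2* from -6.26 to 0.092.

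The labels give replicate numbers 1 and 2 in each group without saying that they mark a shared culture. Deviations of same-numbered libraries correlated at -0.13 and -0.19 in the state comparisons and at 0.16 in both passage comparisons. With the replicate block, 2783 genes were called between passages of naïve cells in place of 1446. A block of crossed pairs, chosen after seeing the data, called 10675 genes at P5 (10274 without) and 9477 at P15 (8899 without).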
